A study of Drosophila melanogaster with 6 samples.

Results

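The genes described here encode the proteins of the large subunit of the cytoplasmic ribosome in Drosophila melanogaster. They were taken by symbol, as every gene of the deposited count table whose name begins with RpL or RpLP followed by a number, with second copies and relatives named -like included and with RpL5, RpL15 and any gene of chromosome 4 left out. The rule found 52 genes among the 17612 in the table and used no measured value. Their RNA was measured in nuclear extract from embryos, in RNA recovered with an antiserum against Isha and in input RNA, and the design asks which transcripts, su(Hw) among them, associate with Isha in vivo.

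The Isha RIP group holds 3 libraries of RNA immunoprecipitated from nuclear extract with a rabbit antiserum labelled Isha-Rb94, bound to Protein A sepharose. The extract was first cleared over beads coated with preimmune rabbit serum. The input group holds 3 libraries of RNA from such extract with no antibody. Both groups used wild-type embryos of the Oregon R strain, collected over 0 to 24 h of development, so no genotype differs between them, and every value averages over the cell types and stages of a whole embryo. No library from a non-immune precipitation was analysed here, so a value above or below input could not be set against the beads or the serum alone. Whether the 3 replicates of each kind were prepared from different extracts is not in the labels, and the p-values below then cover only their spread, which could be technical.

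Ribosomal proteins are made in the cytoplasm, imported into the nucleus and assembled on ribosomal RNA in the nucleolus, and the finished large subunit is exported. Their mRNAs are short and mostly abundant, and many of the genes carry snoRNA genes in their introns. In the large subunit these proteins surround the peptidyl transferase centre, which joins amino acids, and the exit tunnel for the nascent chain. A flexible stalk of P proteins recruits the elongation factors.

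Most of these transcripts were lower in Isha RIP than in input, but by very unequal amounts, and a few were higher. Of the 49 members that passed the filter on low counts, 37 were lower in Isha RIP (75.5%) and 5 were higher (10.2%), by edgeR's quasi-likelihood test at an adjusted p under 0.05, and 7 did not pass. Over all 11764 genes tested, 30.4% were lower and 27.0% were higher. The median log2 fold change of Isha RIP over input was -0.91 over the members tested, with quartiles of -1.39 and -0.16, and -0.05 over all genes tested. The members ran between -2.69 for RpL8 and 1.58 for RpLP0-like. The values compare 2 fractions of bulk RNA from extract of whole embryos, and in the level within either fraction, fewer cells of a type and less RNA per cell cannot be told apart.

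The Isha RIP libraries held 8386414 to 14342543 counts and the input libraries 29344529 to 31680173, 2.94 times as many on average. Pairs of libraries of 1 group differed by more than counting noise, so none was counted as a repeat of another. Values in CPM are counts relative to the library total (the usual CPM scale), corrected by its TMM factor. The RNA of the gene of Isha was at 328 ± 5.29 CPM in Isha RIP and 256 ± 2.224 CPM in input (SD, n = 3 each), and su(Hw) at 106 ± 1.49 CPM in Isha RIP and 73.5 ± 4.24 CPM in input. Embryonic patterning genes (4 markers) summed to 223 to 235 CPM in Isha RIP and 178 to 184 CPM in input. Of these, ftz and twi were higher (log2 fold changes of 0.85 and 0.91), and eve (-0.04) and sna (-0.09) did not pass. Neuronal genes (2 markers) summed to 732 to 756 CPM in Isha RIP and 361 to 398 CPM in input. The 7 markers of adult tissues that embryos should lack summed to 0.592 to 5.47 CPM in Isha RIP and 3.94 to 6.42 CPM in input, with Cp36 and Mst84Da at 0 in all 6 libraries. Muscle genes (2 markers) summed to 5469 to 5717 CPM in Isha RIP and 6899 to 7095 CPM in input. Cuticle genes (2) summed to 212 to 217 CPM in Isha RIP and 184 to 199 CPM in input. They were called in opposite directions, Cpr47Ef lower (log2 fold change -0.88) and TwdlE higher (0.23). The fat body marker was at 16797 to 17260 CPM in Isha RIP and 10209 to 10509 CPM in input. Of 4 nuclear RNA genes, snRNA:7SKa was lower, at 1158 ± 76.5 CPM in Isha RIP and 28399 ± 2351 CPM in input (SD, n = 3 each). The other 3 were higher, with log2 fold changes of 0.78 for lncRNA:roX1, 1.46 for lncRNA:roX2 and 1.39 for lncRNA:Hsromega. The part of these differences in the members' values was not tested.

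As a share of all counts, the 52 genes made up 2.91%, 2.81% and 2.89% of the Isha RIP libraries and 4.69%, 4.64% and 4.61% of the input libraries. The mean shares were 2.87 ± 0.0515% in Isha RIP and 4.64 ± 0.0389% in input (SD, n = 3 each), so the share in input was 1.62 times as large, and the groups did not overlap. Measured in TPM over protein-coding genes, a scale that divides counts by exon length, the share was 9.36 ± 0.122% in Isha RIP and 13.6 ± 0.120% in input. Measured as TPM over all genes, the direction flipped, with 6.61 ± 0.0988% in Isha RIP and 6.49 ± 0.0810% in input. On that scale snRNA, snoRNA and scaRNA genes alone held 23.7% to 24.6% of the total in Isha RIP and 45.5% to 46.9% in input, and the median log2 ratio of all genes with at least 10 CPM was 0.64. On each of the 4 scales tried, 41 of the 48 members with at least 10 CPM lay below the median of all genes. The members' median lay 0.93 below it on each. That agreement was nearly fixed in advance, since length cancels in the ratio and the scales differ mainly by a factor per library. It adds no support from separate scales. Without taking that median as the reference, 18 members lay above input on the all-gene scale with no overlap of the groups, and 27 below. TPM below are over protein-coding genes.

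The difference was larger than the spread between libraries for most members, and its size differed between genes by far more than its error. Among the 48 members above the cut of 10 CPM, the SD of the log2 fold change between members was 0.88, against a median standard error of 0.047. The coefficient of variation between libraries had a median of 5.76% in Isha RIP and 3.29% in input. The CPM of the groups did not overlap for 42 members, of which 36 were lower in Isha RIP and 6 were higher, beside 34.0% and 30.0% of all genes tested. When the log2 ratio was taken between libraries of the same number, the members kept nearly the same order, with a Pearson correlation over the 48 members of 0.987 to 0.993 between the 3 ratios, which is given as a description. A fall of at least 2-fold that passed the test was seen in 22 members, beside 12.8% of all genes, and 5 of them fell at least 4-fold, beside 2.59%. Tested against a change of 1.5-fold, 29 members were lower, beside 14.5% of all genes, and 1 was higher, beside 11.4%.

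**Figure D1:**
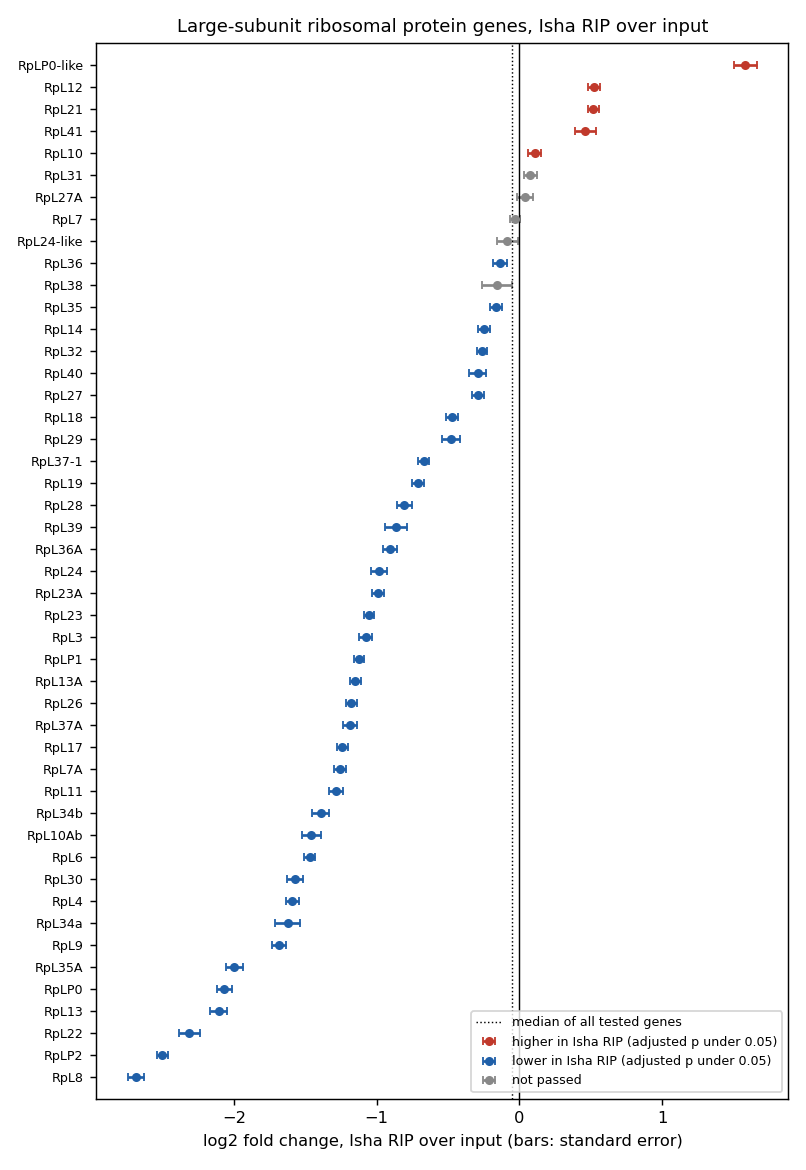
Log2 fold change of Isha RIP over input for 47 of the 48 members with a mean of at least 10 CPM, highest at the top, with bars of 1 standard error, colour for the call and a dotted line at the median of all genes tested. The members run between -2.69 and 1.58, with 37 lower, 5 higher and 5 that did not pass.

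**Figure D2:**
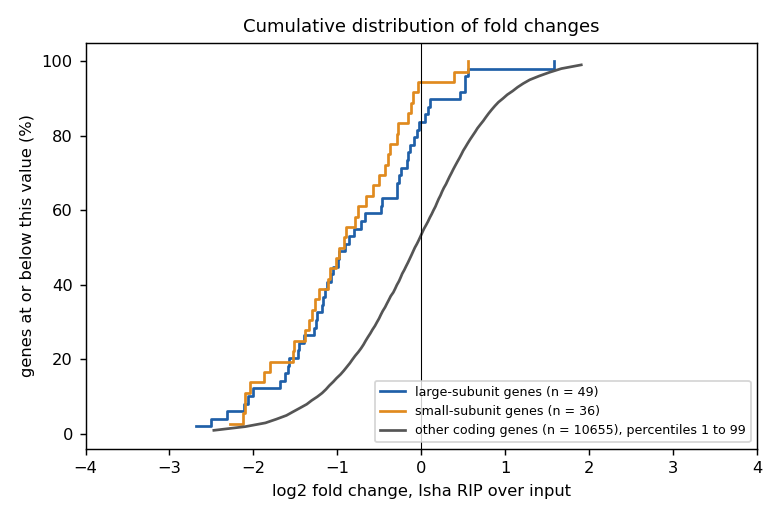
Cumulative share of genes (percent) against the log2 fold change of Isha RIP over input, for the 49 large-subunit genes, the 36 small-subunit genes and the 10655 other protein-coding genes tested, the last drawn between percentiles 1 and 99. The medians are -0.91, -0.95 and -0.08, and both ribosomal curves lie left of the third over most of their range.

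The stalk held genes called in both directions. RpLP2, an acidic protein of the stalk's tip, was at 455, 438 and 428 CPM in Isha RIP, against 2444, 2530 and 2515 CPM in input. Its log2 fold change was -2.50 (SE 0.036, adjusted p = 1.10e-23), a 5.67-fold fall, and the gene lies at 16586129 to 16586732 on the forward strand of chromosome 2R of dm6. RpLP1, its partner in the stalk dimers, was at 799, 839 and 808 CPM in Isha RIP, against 1805, 1768 and 1763 CPM in input. The fall of RpLP1 was smaller, with a log2 fold change of -1.13. RpLP0, which anchors both dimers to the ribosomal RNA, was at 369, 330 and 399 CPM in Isha RIP, against 1582, 1534 and 1492 CPM in input, a fall of 4.19-fold (chromosome 3L, 22075867 to 22077487, forward strand). RpL12, which sits at the base of the same stalk, went the other way. It was at 2201, 2011 and 1848 CPM in Isha RIP, against 1415, 1370 and 1429 CPM in input. Every Isha RIP library was above every input library, and the rise was 1.44-fold (log2 fold change 0.52, SE 0.044, adjusted p = 6.76e-10).

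Around the peptidyl transferase centre the values spread as widely. RpL8, whose protein reaches close to the catalytic site, had the lowest value of all members, at 193, 188 and 225 CPM in Isha RIP, against 1364, 1304 and 1242 CPM in input. Its log2 fold change of -2.69 (SE 0.057, adjusted p = 1.34e-20) is a 6.44-fold fall. The gene lies on the forward strand of chromosome 3L at 2587456 to 2588883, and its exons overlap no other gene. RpL3, which also reaches toward that site, had a log2 fold change of -1.08. RpL10, which joins late in assembly near the same centre, was at 686, 643 and 645 CPM in Isha RIP and 621, 624 and 588 CPM in input. The groups of RpL10 did not overlap, but the rise was 1.08-fold and close to the threshold (adjusted p = 0.0400), and 8 of 17 alternative settings lost the call, among them those without Isha RIP replicate 1 and without any one of the 3 input libraries.

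Each member was put in 1 structural group only. Of the 8 members grouped here as lining the exit tunnel or surrounding its opening, 7 were lower and the other, RpL31, did not pass. Their median log2 fold change was -0.93. RpL4 (-1.59) and RpL17 (-1.24), which line the tunnel, and RpL26 (-1.18) fell by more than 2-fold. RpL23A (-0.99) and RpL35 (-0.17) both stand at the docking site for factors that meet the nascent chain, and differed widely in value. The call of RpL35 was lost with the gene length offset (-0.03) and in the test against 1.5-fold. RpL39 (-0.86), a very small protein of the tunnel wall, and RpL19 (-0.71) lay between. RpL31 was at 506, 497 and 539 CPM in Isha RIP and 493, 489 and 481 CPM in input, a difference that did not pass in edgeR (log2 fold change 0.08, adjusted p = 0.150) although its groups did not overlap. With DESeq2 it passed as higher (0.12, adjusted p = 0.0162). RpL10Ab, the protein of the L1 stalk, was lower (-1.46), as was RpL11 (-1.28), which enters the subunit with the small 5S ribosomal RNA.

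Of the 3 members grouped here as facing or bridging to the small subunit, RpL23 and RpL24 were lower and RpL41 was higher. RpL23 was at 1063, 1017 and 1058 CPM in Isha RIP, against 2098, 2178 and 2253 CPM in input (log2 fold change -1.06), and RpL24 had -0.99. RpL41, the smallest of the ribosomal proteins, was at 1233, 1310 and 1032 CPM in Isha RIP, against 960, 886 and 747 CPM in input. The groups of RpL41 did not overlap, and the rise was 1.38-fold (log2 fold change 0.46, SE 0.072, adjusted p = 8.39e-06). RpL40, made as a fusion with ubiquitin, was at 704, 666 and 846 CPM in Isha RIP and 938, 848 and 931 CPM in input, a fall of 1.22-fold.

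The remaining group of 23 members, assigned here to no site on the subunit, included 18 that were lower and 1 that was higher. RpL22, whose fly protein has been found with histone H1 on chromatin, was at 99.6, 89.7 and 116 CPM in Isha RIP, against 533, 501 and 492 CPM in input (log2 fold change -2.31). Its exons share 377 bases with a long noncoding RNA gene of the same strand, lncRNA:CR42491, which was at 195 ± 6.79 CPM in Isha RIP and 174 ± 11.1 CPM in input (SD, n = 3 each). RpL13 was at 205, 177 and 220 CPM in Isha RIP, against 910, 851 and 841 CPM in input (-2.11). RpL35A was at 157, 145 and 176 CPM in Isha RIP, against 658, 634 and 623 CPM in input (-1.99997, just short of a 4-fold fall). For these 3 genes the highest Isha RIP value was under every input value by more than 3-fold. RpL21 was the gene that was higher, at 2353, 2228 and 2122 CPM in Isha RIP, against 1499, 1622 and 1561 CPM in input, a rise of 1.43-fold (log2 fold change 0.52, SE 0.038, adjusted p = 5.02e-11).

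The log2 fold changes of the members that fell by at least 2-fold in that group were -1.69 for RpL9, -1.57 for RpL30, -1.47 for RpL6, -1.26 for RpL7A, -1.19 for RpL37A and -1.15 for RpL13A. RpL30 and RpL7A are related proteins that bind kinked RNA helices. Smaller falls were measured in RpL36A (-0.91), RpL28 (-0.81), RpL29 (-0.48), RpL18 (-0.47), RpL27 (-0.29), RpL32 (-0.26), RpL14 (-0.25) and RpL36 (-0.14). The call of RpL27 was lost with the length offset (-0.07) and against 1.5-fold. RpL32, under its old name rp49 a common reference gene for measuring fly RNA, was at 1084, 1052 and 1121 CPM in Isha RIP and 1327, 1313 and 1268 CPM in input. RpL36 had overlapping groups and an adjusted p of 0.0196, and 10 of 17 alternative settings lost its call, among them those without Isha RIP replicate 1 or 2 and without input replicate 2 or 3. Among those that did not pass were RpL38 (-0.16), RpL7 (-0.03) and RpL27A (0.04), and the groups of each overlapped.

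**Figure D3:**
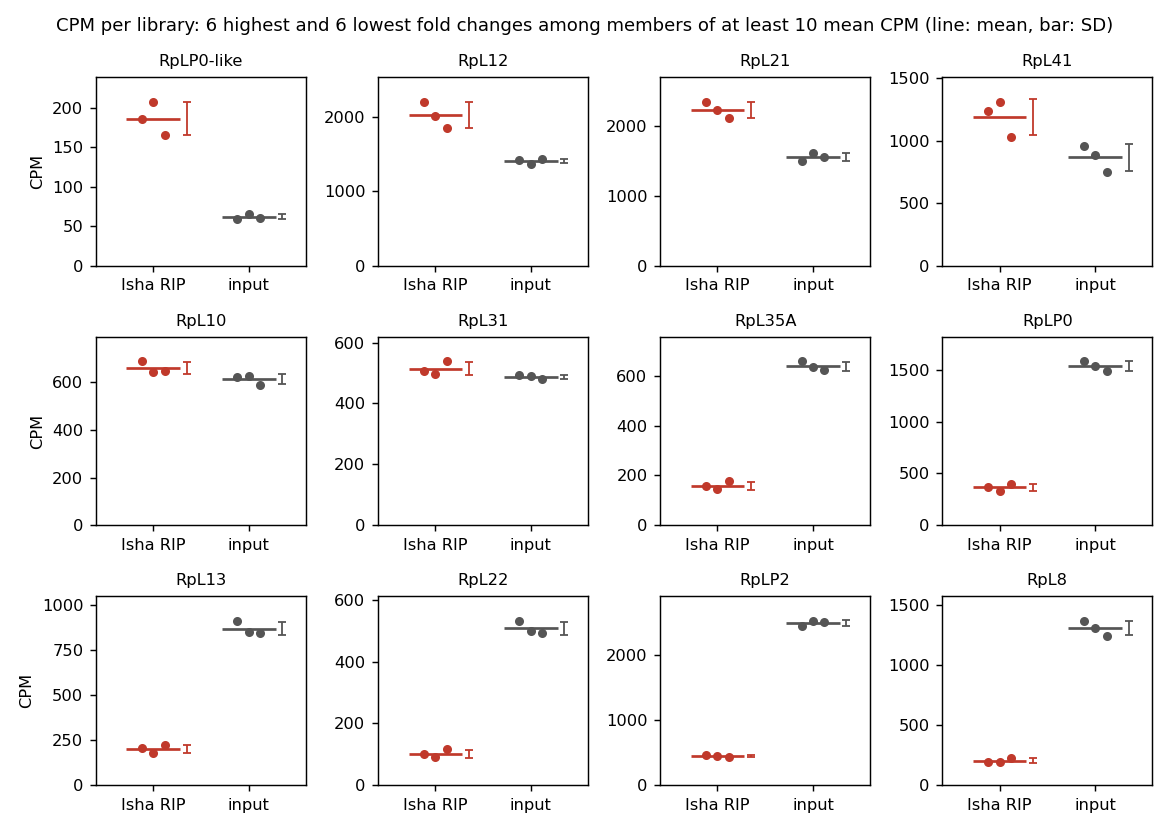
CPM in each of the 3 Isha RIP libraries (left, red) and the 3 input libraries (right, grey) for the 6 highest and 6 lowest fold changes among the 48 members, on linear axes from 0 with the mean as a line and the SD as a bar. The Isha RIP points of RpL8, RpLP2, RpL22, RpL13, RpLP0 and RpL35A lie below all their input points, and those of RpLP0-like, RpL12, RpL21 and RpL41 lie above them.

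Second copies and -like relatives gave the highest value and the lowest counts. RpLP0-like is a relative of the assembly factor Mrt4, known from yeast to hold the place of the stalk protein P0 on ribosomes under construction. It was at 186, 208 and 166 CPM in Isha RIP, against 59.7, 66.2 and 60.7 CPM in input. That rise of 3.00-fold (log2 fold change 1.58, SE 0.081, adjusted p = 1.06e-13) stood at rank 434 of the 11764 genes tested, and its call held under each of the 16 alternatives that could test it. The gene lies on the reverse strand of chromosome 2R at 10098518 to 10099590, and 39 bases of its exons overlap the opposite-strand gene Jra. Jra itself was at 38.4 ± 3.35 CPM in Isha RIP and 33.6 ± 0.724 CPM in input (SD, n = 3 each).

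Counts of RpLP0-like were 50.3%, 63.0% and 41.7% of those of RpLP0 in Isha RIP, against 3.78%, 4.31% and 4.07% in input. The log2 ratio of the pair was therefore 3.65 higher in Isha RIP, and the groups did not overlap (exact permutation test, 2-sided, p = 0.1, the smallest that 3 libraries against 3 allow, adjusted p = 0.167 over the 5 pairs tested). RpL24-like, a relative of yeast Rlp24, which precedes RpL24 on the forming subunit, was at 112, 124 and 132 CPM in Isha RIP and 128, 127 and 136 CPM in input, and did not pass (-0.08, adjusted p = 0.345). RpL24 was at 518, 454 and 561 CPM in Isha RIP, against 1064, 995 and 981 CPM in input. Counts of RpL24-like were 21.7%, 27.3% and 23.6% of those of RpL24 in Isha RIP, against 12.0%, 12.8% and 13.9% in input, a log2 difference of 0.90 (exact permutation test, p = 0.1, adjusted p = 0.167).

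RpL34a and RpL34b, a pair of copies of the same protein, both fell. RpL34a was at 40.5, 44.5 and 39.1 CPM in Isha RIP, against 134, 130 and 118 CPM in input (-1.63), and RpL34b at 351, 321 and 404 CPM in Isha RIP, against 994, 902 and 936 CPM in input (-1.39). Their ratio differed by -0.22 on the log2 scale between Isha RIP and input, with overlapping groups (exact permutation test, p = 0.3, adjusted p = 0.375). RpL22-like, a copy of RpL22, had 9, 0 and 12 counts in Isha RIP and 12, 11 and 16 counts in input, too few to fix a direction (log2 fold change 0.56, SE 1.14, adjusted p = 0.703). The log2 ratio of RpL22-like to RpL22 was 2.13 higher in Isha RIP, with overlapping groups (exact permutation test, p = 0.4, adjusted p = 0.4). With 2 counts added in place of 0.5, the difference was 2.76 and the groups did not overlap (exact permutation test, p = 0.1). That lack of overlap rests on the added count, as Isha RIP replicate 2 had 0 counts of RpL22-like.

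Of the pair for the protein L37, RpL37-1 carried nearly all counts, at 767, 760 and 752 CPM in Isha RIP, against 1227, 1222 and 1181 CPM in input (-0.67). RpL37-2 did not pass the filter, with 0 counts in each Isha RIP library and 11, 8 and 42 counts in input. Against a floor of 3 counts per Isha RIP library, RpL37-2 was at least 2.17-fold lower there, but that bound rests on input replicate 3 and is 1.05-fold without it. The log2 ratio of RpL37-2 to RpL37-1 differed by -2.76 with 0.5 added to each count and by -0.91 with 2 added (exact permutation test, p = 0.1 and p = 0.3), so its size rests on the added count. RpL10Aa, the copy of RpL10Ab, was listed at 0 in all 6 libraries. RpL7-like, a relative of yeast Rlp7, was also listed at 0 in all 6. Its exons share 1771 bases with those of CG34164 on the same strand, itself listed at 0, so RpL7-like is given only as listed at 0. How reads in shared exons, or reads that match more than 1 copy, were counted is not stated, so a listed 0 sets no bound on the RNA of either gene.

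Levels per length differed widely between the members. Among the highest TPM in Isha RIP were those of RpL41 at 9678 ± 1195, RpL21 at 8248 ± 445, RpL23 at 5014 ± 113 and RpL12 at 4549 ± 408 (SD, n = 3). Among the highest in input were those of RpLP2 at 10081, RpL23 at 9795, RpL41 at 6589 and RpLP1 at 5649. RpLP2 stood in place 16 in Isha RIP and in place 1 in input, and RpL12 in place 5 in Isha RIP and in place 15 in input. The lowest level among the 48 members was that of RpL38, at 133 TPM in Isha RIP and 139 TPM in input, where the levels spanned 72.5-fold. Over the 48 members the Spearman correlation of the level in Isha RIP with that in input was 0.77, as a description. RpL41 has an exon length of 320 bases, so its place depends on dividing by length: by CPM, over all 6 libraries, it stood in place 12.

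**Figure D4:**
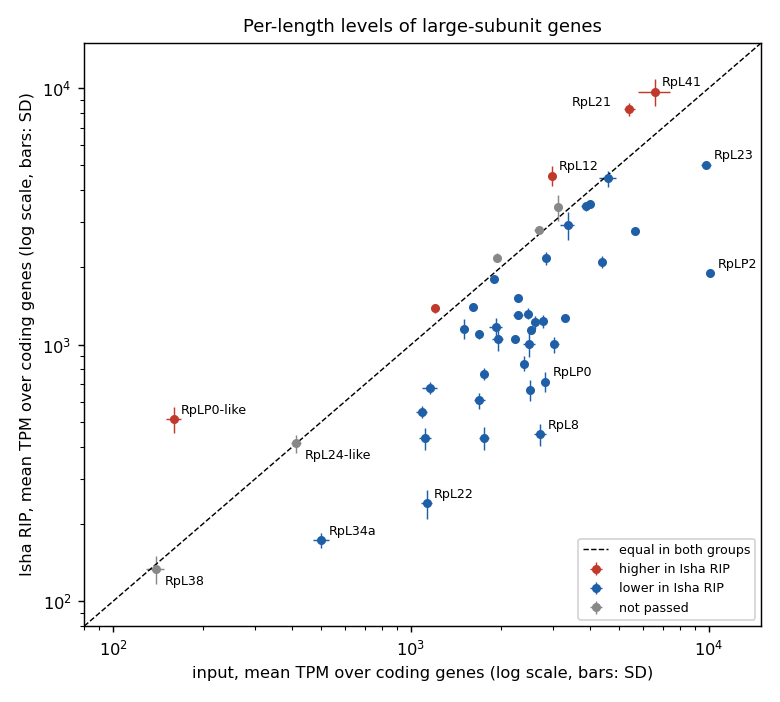
Mean TPM over protein-coding genes in Isha RIP (vertical) against that in input (horizontal) for the same 47 members, on log axes with bars of 1 SD (n = 3) and a dashed line of equal values. Most points lie below the line, RpLP2 and RpL8 far below it, and RpLP0-like, RpL41, RpL21 and RpL12 above it.

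Nearly all members that carry snoRNA genes in their introns were lower. The 14 members with such a gene had a median log2 fold change of -1.20, with 13 lower and RpL27A not passed, and the 34 without had a median of -0.58, with 24 lower and 5 higher. The difference between these sets was not tested. The snoRNAs cut from these introns guide the modification of ribosomal RNA. Of the 24 nested snoRNA genes tested, out of 25, 11 were lower and 3 higher, with a median of -0.42, beside a median of -0.36 for the 192 other snoRNA and scaRNA genes tested, of which 81 were lower and 29 higher. The value of the snoRNA was above that of its host in 18 and below it in 6. The rest of the 24 aside, 14 had a mean of at least 10 CPM, with 9 lower, 1 higher and a median of -0.81. Of those 14, 10 lay above their host and 4 below it.

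Introns of RpL3 held both extremes. The H/ACA snoRNA gene snoRNA:Psi28S-291 was at 185, 168 and 210 CPM in Isha RIP, against 5951, 5643 and 5432 CPM in input (log2 fold change -4.91, adjusted p = 1.95e-25). The C/D snoRNA gene snoRNA:Me28S-G2017, also within RpL3, was at 101, 97.5 and 99.04 CPM in Isha RIP, against 20.9, 14.7 and 20.1 CPM in input (2.41, adjusted p = 4.84e-14). RpL3 itself lay between them at -1.08. Other nested snoRNA genes fell beyond their hosts, among them snoRNA:Or-CD10 in RpL7A (-3.22) and snoRNA:Or-aca3 in RpL4 (-2.95). These 2 rest on few Isha RIP counts, 2, 16 and 27 for snoRNA:Or-CD10 (SE 0.38) and 19, 16 and 54 for snoRNA:Or-aca3 (SE 0.30). The value of snoRNA:Psi18S-531 in RpL22 (-2.11) stayed close to that of its host. The third snoRNA gene of RpL3 with counts, snoRNA:Me18S-C1096, had 1788, 213 and 137 counts in input, so 1 library holds most of its input counts.

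**Figure D5:**
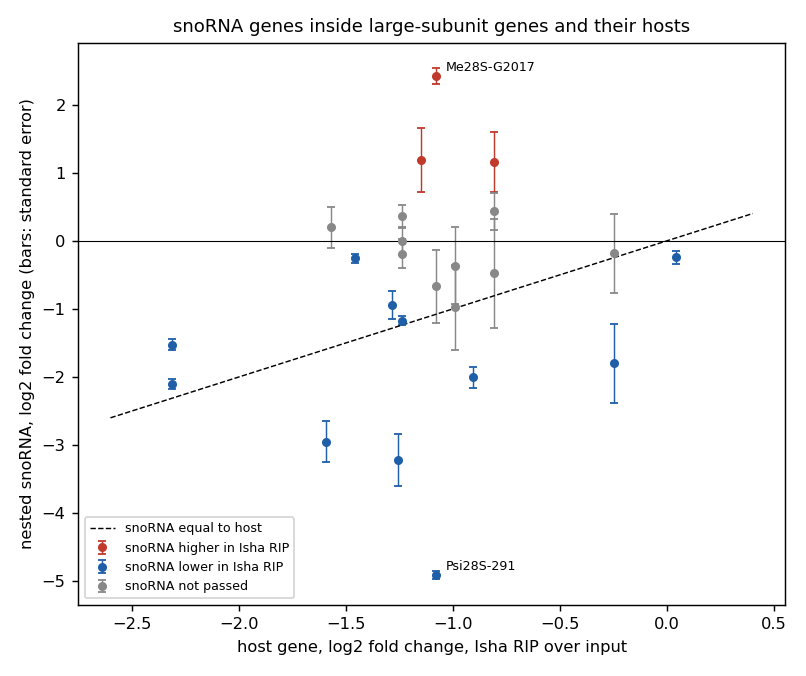
Log2 fold change of Isha RIP over input for 24 nested snoRNA genes (vertical, bars of 1 standard error) against that of the large-subunit gene that holds them (horizontal), with a dashed line of equal values. Of the points, 18 lie above the line and 6 below it, and the genes within RpL3 run between -4.91 and 2.41.

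Other features of the genes are set beside the values as descriptions over the 48 members. The Spearman correlation of the log2 fold change was -0.23 with exon length, -0.33 with the span of the gene, -0.002 with the number of exon blocks and 0.04 with the TPM in input. The 6 members on the X chromosome had a median of -0.96 and the 42 on autosomes -0.95. Among arms, the median was -0.99 on 2L (11 genes), -0.32 on 2R (12), -0.99 on 3L (9) and -1.27 on 3R (10). The exons of 21 of the 52 members overlap another gene, and the sources used here do not state whether counting used strand. The median was -0.95 for the 20 overlapping members measured and -0.92 for the other 28.

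Genes of the small subunit were mostly lower too. Of 36 tested RpS genes and their kin, 30 were lower and 2 were higher, among them RpS27A, with a median of -0.95. Over all genes tested, 30.4% were lower and 27.0% higher. Among the 35 protein-coding genes that are no ribosomal protein genes, have exons of 500 to 1500 bases and reach 400 CPM, 13 were lower and 20 higher, with a median of 0.17. Without the CPM cut and with ribosomal protein genes kept in, coding genes of that length leaned the other way. Of those 3386 genes, 34.4% were lower and 17.3% higher, with a median of -0.30. The 2 large-subunit genes left out by the rule went in opposite directions, RpL5 with -0.68 and RpL15 with 0.50. The genes whose profile over the 6 libraries came nearest to the median profile of the called members were RpS18, CG3106, Rack1, rempA and RpS15, at Euclidean distances of centred log2 CPM of 0.0608, 0.0668, 0.0784, 0.0900 and 0.101. Their log2 fold changes lay between -1.14 and -1.02, and the distance mostly reflects such a like difference between the groups. For rempA it rests on 31, 29 and 56 counts in Isha RIP (SE 0.29).

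Genes that serve ribosome production but are not part of the subunit were called in both directions. The counts below stand beside 27.0% higher and 30.4% lower over all genes tested. Of 15 large-subunit assembly factors, 7 were higher, with Surf6 (1.74) and CG5033 (1.12) by the smallest adjusted p, and 7 were lower, with Non1 (-0.64) and Nle (-1.30), and the median was 0.19. Of 15 snoRNP and other nucleolar factors, 5 were higher, such as Nop56 (1.21) and Nop60B (0.81), and 8 lower, such as Fib (-1.43), the rRNA methyltransferase fibrillarin, and l(2)k09022 (-1.07). Of 5 genes of RNA polymerase I transcription, 3 were higher, among them TAF1B (0.38) and Tif-IA (0.30), and the other 2, Polr1H (-0.45) and Polr1B (-0.16), did not pass. Among 13 elongation factor and other translation genes, whose mRNAs or those of their relatives carry the same pyrimidine-rich start as ribosomal protein mRNAs, 7 were lower, such as Rack1 (-1.08) and eEF2 (-0.71), and 2 higher, eEF1alpha1 (0.14) and eEF1delta (0.61). Of 12 regulators of ribosomal protein genes and their translation, 8 were higher, such as Thor (1.24), the translation repressor 4E-BP, and S6k (1.22), and 3 lower, among them raptor (-1.59) and gig (-0.38), with a median of 0.83.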

How the data were processed

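RNA of Isha RIP and of input, 3 libraries each, was compared. Per the labels' protocols, each immunoprecipitation used 12 mg of nuclear extract, RNA was treated with DNase and chemically fragmented, and libraries (NuGEN Ovation, 100 ng of RNA) were read as 50 bp single ends. The authors deposited raw counts per gene with exon coordinates and summed exon length (another number, used here for TPM, the length correction, the correlation with length and the choice of genes of like length). The submitters' processing notes list HISAT2 2.2.1 (alignment to dm6), Subread 2.0.0, Picard 2.22.2 and cutadapt 2.9. How strand, duplicate reads and multiply mapped reads were treated, and the annotation version, are not stated in the sources used here. Counts of 2 libraries of a group differed by 5.64 to 13.2 times counting noise (chi-square over its degrees of freedom). The lowest count of a member above 10 CPM was 357.

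Symbols came from a RefSeq table of the same build, by coordinates for 17170 genes and by identifier for 16, and 426 of 17612 stayed unnamed. Genes were filtered with filterByExpr (minimum count 10), scaled with TMM and tested with edgeR 4.0.16 (R 4.3.3; quasi-likelihood F-test, group only, 2-sided, Benjamini-Hochberg over the 11764 genes tested). The SE was derived from the fitted log2 fold change and its F statistic. The script was tested on simulated counts. Alternatives were DESeq2 1.42.0, limma 3.58.1 and other filters, scalings and library sets. The members, gene lists and groups were chosen with earlier results of these data known, and no test was run over a list. Each member is named with its value, except 1 that is not reported here. Values per library are given for the 6 lowest and 6 highest, the 3 with the highest TPM, the stalk, the copies, those higher and those not tested. Each other list has up to 2 called genes per direction, by adjusted p, and the 5 genes nearest in profile, su(Hw) and Isha are given. RpL32, RpL31 and RpL40 were given per library, and the nested snoRNA genes, Polr1H and Polr1B were named, after their values were seen. Bop1, Mpp10 and Tor of the lists found no match, and CG5033 was used for the first. No sequence of these genes was used here.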

Additional observations from a re-analysis of the deposited data

How the results depend on the processing

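Of the 49 tested members, 30 kept their direction and their call under every one of the 17 other settings that could test them, 29 lower and RpLP0-like higher. The counts of 5 higher and 37 lower became 1 higher (1345 of all genes higher, 1703 lower) in the test against 1.5-fold, and 2 higher and 21 lower (2053 and 2343 of all genes) without genes whose exons overlap another, where fewer members are tested. The members' median of -0.91 became -0.87 with DESeq2 and with totals over protein-coding genes (-0.8693), -0.95 with upper-quartile factors and with no count filter, and -0.73 with a gene length offset and without overlapping genes. Scales added after seeing the data gave -0.29 for TPM over all genes, where all genes shifted too, -0.86 for TPM over protein-coding genes and -1.01 for CPM with the small RNA genes left out of the total. Leaving out each library in turn gave medians of -0.97 to -0.89, with 4 to 5 members higher and 36 to 38 lower. Of all genes, 2908 to 3034 were then higher and 3204 to 3533 lower. By CPM rather than TPM, RpL41 stood at 12. Values that changed sign belonged to members that had not passed. With the length offset these included RpL38 (0.0716), RpL24-like (0.0702) and RpL7 (0.22, adjusted p = 1.9e-05 by edgeR). RpL7 was also at 0.00891 with DESeq2, 0.00615 with coding totals and 0.00875 with a strict filter. RpL27A was at -0.000605 with upper-quartile factors and at -0.0558 to 0.110 when 1 library was left out (-0.0558 without Isha RIP replicate 1), and RpL22-like at -0.0191 with limma-voom. RpL31 passed as higher with DESeq2, coding totals, the strict filter and the length offset. The cause was not tested. Same-numbered libraries did not deviate together (correlations of -0.0091, -0.0273 and -0.0349). That does not settle whether the numbers pair them, since paired libraries from extracts that differ little would give such values too. With the number as a replicate block, 5 members were higher and 37 lower, beside 3065 and 3520 of all genes. The members' median was then -0.91. Depth limits RpL22-like, which has too few counts for a direction, and RpL37-2, whose lower bound of 2.17-fold is 1.05-fold without input replicate 3.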
